A study of Mus musculus with 13 samples.

Results

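The histone cluster genes encode the bulk of the histone proteins that package DNA, and they lie side by side in a few dense clusters of the mouse genome. All 62 gene entries of the expression table whose symbol begins with Hist and a digit were taken, out of 14518 gene entries in all. They comprise 6 genes of the linker histone H1, 15 of H2A, 17 of H2B (1 of them the pseudogene Hist3h2bb-ps), 11 of H3 and 13 of H4. On the mm10 assembly (GRCm38), 50 lie on chromosome 13 between 21715763 and 23934156, 8 on chromosome 3 between 96219865 and 96270132, 3 on chromosome 11 between 58948920 and 58956830, and 1, Hist4h4, on chromosome 6 between 136801553 and 136804415.

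Microglia, the resident macrophages of the brain, had been sorted from C57BL/6 mice aged 2 months by their CD11b and intermediate CD45 staining, and their RNA was sequenced. In the RSD group (n = 7 libraries, numbered 2, 7, 8, 10, 11, 12 and 13) the mice had been through 6 cycles of repeated social defeat. The control group (CON, n = 6, numbered 1, 4, 5, 17, 18 and 19) had not been defeated. The cells of both were collected 24 days after the cycles ended. No transgene or drug is named for either group. The comparison asks which microglial transcripts still differ weeks after the stress.

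Pairs of H2A with H2B and of H3 with H4 form the core around which DNA is wound, and H1 binds the DNA between these cores. Most genes of the clusters are transcribed as cells copy their DNA, have no introns, and give messenger RNAs that end in a stem-loop in place of a poly(A) tail. The stem-loop binding protein, encoded by Slbp, holds this end through processing, export and translation, and the messenger RNA is degraded when replication stops. Cells that have stopped dividing keep making histones mainly from replacement genes outside the clusters, and some cluster genes can also give polyadenylated messenger RNA. Microglia of the healthy adult brain divide rarely.

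The stem-loop is the part of the messenger RNA that these genes share and other genes lack, so its sequences are shown first. A 16-base pattern, a fully paired 6-base stem with GG at its start and T at its end around a 4-base loop of the form TNTN, was searched on the transcript strand in all annotated bases after the stop codon (GENCODE M21). It was found, within 100 bases of the stop codon, in 43 of the 62 genes, and in 43 of the 47 whose annotation reaches at least 30 bases past the stop codon (91.5%). The 100 bases after the stop codon held it in 3 of 19712 other protein-coding genes (0.0152%). The 43 loops fell into 8 sequences, written here as DNA with the 4 loop bases in capitals:
Hist1h1c and 22 other genes of H1, H2A, H2B and H3: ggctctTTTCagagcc
Hist1h3c and 5 other genes of H1, H2B and H3: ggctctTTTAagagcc
Hist1h4n and 6 other genes of H4: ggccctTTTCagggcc
Hist1h4i and Hist2h4: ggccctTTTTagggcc
Hist1h4b and Hist1h4j: ggtcctTTTCaggacc
Hist1h4a: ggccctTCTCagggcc
Hist1h3g: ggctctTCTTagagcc
Hist2h2ac: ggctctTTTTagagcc
The stem thus separated the families: all 12 loops of H4 genes had a stem of ggccct or ggtcct, and all 31 loops of the other families had ggctct. In 18 genes the annotated transcript ended within 50 bases after the loop, and in 25 it ran further. No loop was found in 4 genes, and in 15 under 30 bases after the stop codon were annotated.

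Upstream of their starts the families differed in short DNA words. In the 250 bases before the RefSeq start (GRCm38.p6), on either strand, 56 genes were matched. The CCAAT box, a binding word of the factor NF-Y, occurred in 82.1% of them against 33.8% of all 32851 promoters. It was in all 6 H1, all 15 H2A and all 14 H2B promoters, in 8 of 9 of H3 and in 3 of 12 of H4. The octamer ATTTGCAT, a binding word of the factor OCT1, occurred in 21.4% against 1.60% of all promoters, in 6 H2A and 6 H2B promoters and in none of H1, H3 or H4. The TATA word TATAAA occurred in 28 of the 56, against 12.4% of all promoters. Many H2A and H2B genes stand head to head and share a promoter, so neighbouring windows overlap. The gap between Hist1h2ae and Hist1h2bg, the H2B gene with the highest level, holds all 3 words. It is shown on the forward strand, with CCAAT (or its reverse, ATTGG), the octamer and the TATA word in capitals, from chr13:23571221-23571395 of GRCm38.p6:
Hist1h2ae to Hist1h2bg: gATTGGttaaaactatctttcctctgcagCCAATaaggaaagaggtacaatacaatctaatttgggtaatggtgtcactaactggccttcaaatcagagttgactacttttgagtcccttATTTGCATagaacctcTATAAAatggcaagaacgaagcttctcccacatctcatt
A match is a string of letters and not a measured binding site.

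Depth was 9.76 to 12.3 M recovered reads per library. Of the 8 markers of microglia, none was at 0 in any library, and their summed level was 275739 to 295382 normalised reads in all libraries except CON 18, at 180295. CON 18 also held 14733 of summed border-associated macrophage markers, against 186.8 to 449.5 elsewhere. It and RSD 8 stood apart from the rest over all genes, with a median Spearman correlation with the others of 0.948 and 0.975, against 0.988 to 0.992. Neutrophil markers summed to 550.7 to 1185 normalised reads in CON 4, CON 5, RSD 2, RSD 7 and RSD 8, and to 11.6 to 181.5 in the other 8 libraries. In bulk libraries fewer cells of a type and less RNA per cell cannot be told apart.

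Together the 62 genes took 0.278% ± 0.0380 of reads in CON (SD, n = 6) and 0.227% ± 0.0741 in RSD (SD, n = 7). The 6 controls lay between 0.240% and 0.331%. In RSD, 5 libraries lay between 0.227% and 0.288%, RSD 7 was at 0.159% and RSD 8 at 0.0940%. The groups overlapped, and the low end of RSD was made by RSD 7 and RSD 8.

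None of the histone cluster genes was called different between RSD and CON. Of the 62 genes, 60 passed the filter on low counts; Hist1h1t, a testis H1, and Hist2h3c1 did not. Under limma with Benjamini-Hochberg adjustment over all 12496 genes tested, 0 of the 60 passed an adjusted p of 0.05, as did 0.0% of all genes, and the smallest adjusted p of a histone gene was 0.821. At an unadjusted p under 0.05 stood 4 of the 60 (6.67%), all lower in RSD, against 4.0% of all genes in either direction and 1.98% on the lower side. All 60 had a negative log2 difference, against 48.6% of all genes. Their median was -0.39 (range -0.70 to -0.18), where the median of all genes was 0.01. The median standard error of the histone genes was 0.36, and that of all genes was 0.13. For none of the 60 did the groups separate; that happened for 0.064% of all genes.

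The count tools called none of the 60 either, and their median difference was smaller. Over all genes edgeR called 0.0% and DESeq2 0.016%. In edgeR 2 of the 60 stood at an unadjusted p under 0.05, both lower, against 4.81% of all genes and 2.89% on the lower side. In DESeq2 it was also 2, both lower, against 4.62% and 2.46%. The median was -0.28 in both, with 58 of 60 negative in edgeR (51.7% of all genes) and 57 in DESeq2 (50.7%). The difference was larger in these tools for Hist1h1b, at -1.06 in edgeR and -1.08 in DESeq2, against -0.33 in limma. Its sign was not stable. In limma it was 0.22 without RSD 8 and CON 18, its highest library, and 0.11 within sample numbers 1 to 8.

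**Figure D1:**
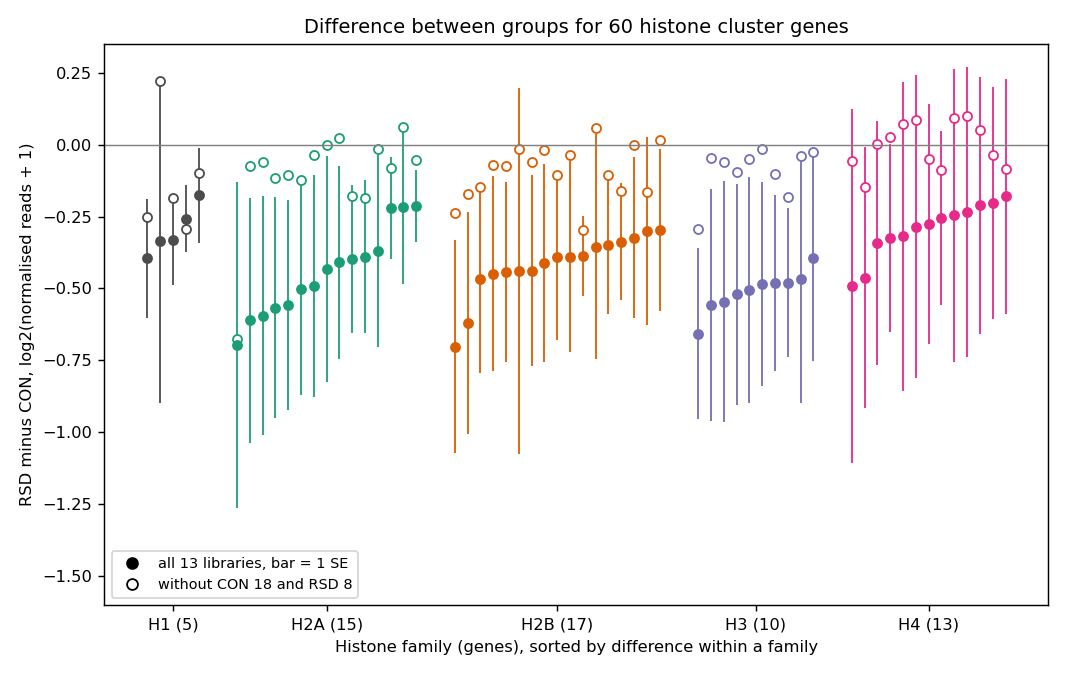
Difference between the group means, RSD minus CON on the log2(normalised reads + 1) scale, for the 60 tested histone cluster genes by family, with bars of 1 SE. Filled points use all 13 libraries and lie between -0.70 and -0.18; open points leave out CON 18 and RSD 8 and have a median of -0.06.

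The size of the shared difference depended on few libraries, and its sign less so except in H4. Of the 13 H4 genes 8 were positive without RSD 8, and all 13 within sample numbers 10 to 19. The genes come from the same libraries and in part share reads, so their signs are not separate observations. Without RSD 8 the median of the 60 was -0.16 with 50 negative (83.3%), against 48.0% of all genes. Without both CON 18 and RSD 8 it was -0.06 with 48 negative (80.0%), against 49.7% of all genes. Leaving out any single library gave medians from -0.51 to -0.16. Within sample numbers 1 to 8 (3 against 3) the median was -0.99, with 58 of 59 tested genes negative, against 51.0% of all genes. At an unadjusted p under 0.05 stood 17 of those (28.8%), all lower, beside 22.2% of all genes in that range and 10.2% on the lower side. Within numbers 10 to 19 (4 RSD against 3 CON) the median was -0.08, with 37 of 60 negative, against 48.8% of all genes. The labels do not say that these number ranges are batches, and the difference between them was not tested.

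RSD 7 and RSD 8 were the lowest pair of libraries for 49 of the 60 genes, against 2.77% of all genes. RSD 8 alone was the lowest for 53 of the 60 (24.9% of all genes were lowest there), with a median of -1.88 on the log2 scale relative to each gene's own median over the 13 libraries. RSD 7 had a median of -0.83. The remaining 11 libraries had medians between -0.24 (CON 5) and 0.44 (CON 18). CON 18 was the highest library for 32 of the 60, against 21.5% of all genes, and CON 1 for 14.

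**Figure D2:**
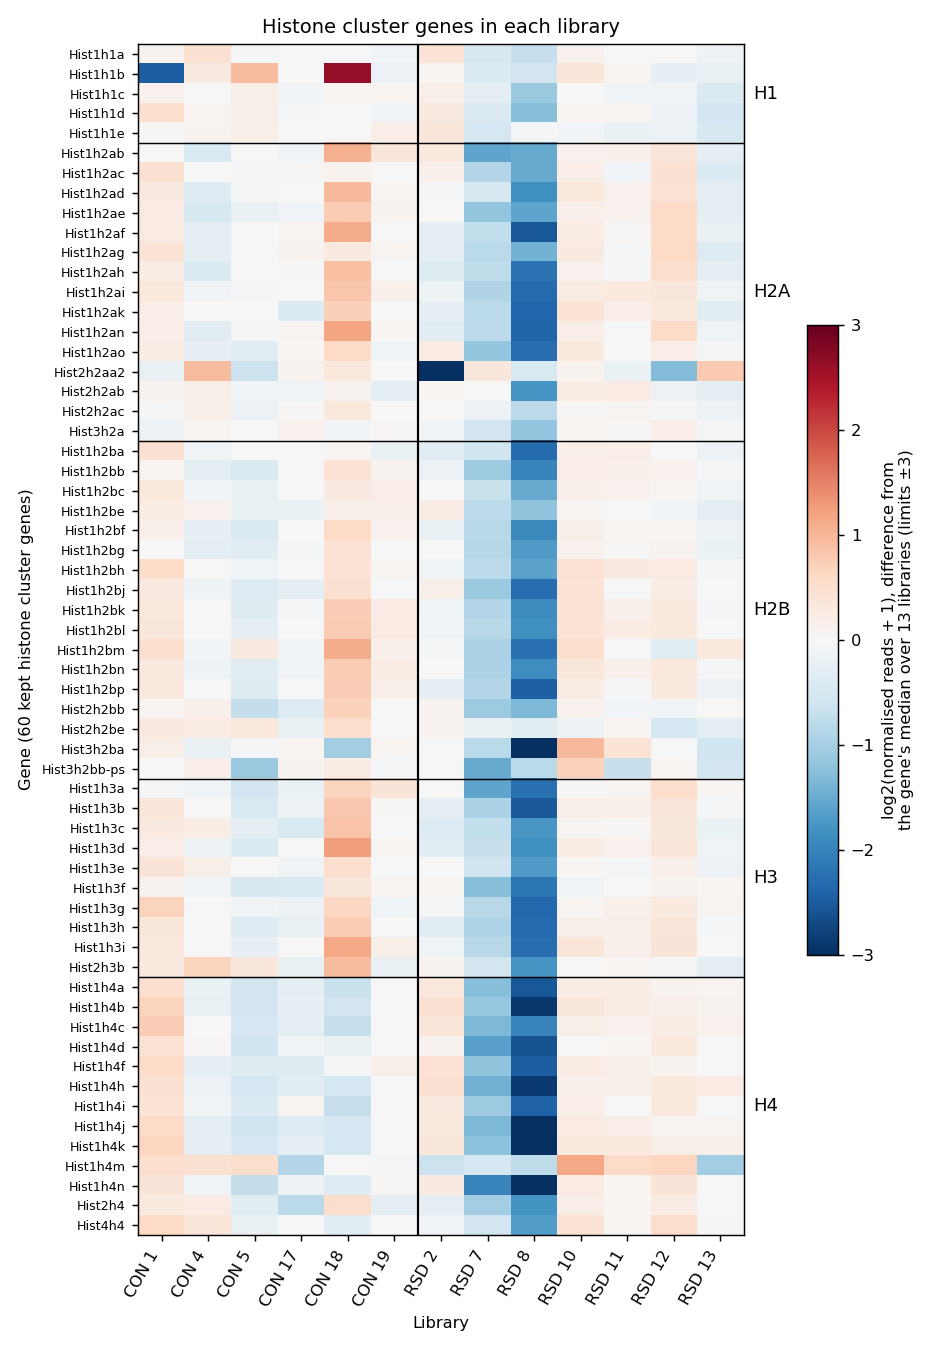
Each row is 1 of the 60 tested histone cluster genes, grouped by family, and each column is a library, controls to the left of the line. Colour is the log2 difference from the gene's own median; RSD 8 (median -1.88) and RSD 7 (median -0.83) are blue in nearly all rows, and CON 18 is red in H2A, H2B and H3 but not in H4.

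Other measures moved with these libraries, and their part in the result was not tested. Histone transcripts are rich in G and C, with a median of 57.8% over the 60 genes against 49.5% over 12365 genes. In RSD 8 the deviation of a gene from its median had a Spearman correlation of -0.73 with transcript GC content across genes, and in RSD 2 of -0.57. In RSD 7, where histones were also low, it was -0.05, and in RSD 2, where it was strong, the histone median was 0.00. Within the 60 histone genes the same correlation was -0.33 in RSD 8 and -0.06 in RSD 7. Genes are not independent replicates, so these are descriptions. RSD 8 also had the lowest share of reads on Rn45s, the ribosomal RNA precursor (3.77%, against 4.89% to 7.80% elsewhere), and the highest on the nuclear RNA Malat1 (4.55%, against 2.76% to 3.47%). RSD 7 stood within the others for both, at 5.67% and 3.41%.

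As a family median the linker histones varied least in RSD 7 and RSD 8, while Hist1h1b among them varied widely. H1 proteins bind DNA where it enters and leaves the nucleosome. All 5 tested H1 genes were negative, with a median of -0.33, and 2 stood at an unadjusted p under 0.05. Hist1h1c lay at 2885 (lowest), 3237 (median) and 3472 (highest) normalised reads in CON, and at 1417, 2854 and 3446 in RSD. RSD 2 and RSD 10 lay within the control range, and the other 5 RSD libraries lay below every control. The log2 difference was -0.33 ± 0.16 (SE; limma adjusted p = 0.821). Hist1h1e was not lowest in RSD 8. It stood there at 2849 normalised reads, close to the RSD median of 2646, while RSD 7 at 2050 and RSD 13 at 2137 were its lowest libraries. Of the 7 RSD libraries 6 lay below the lowest control (2974), and RSD 2 (3848) lay above the highest (3442). Its log2 difference was -0.26 ± 0.12 (limma adjusted p = 0.821) with all libraries and -0.27 without RSD 8. The annotated spans of Hist1h1e and Hist1h2be overlap in part on the same strand, so reads of these genes could be shared.

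Hist1h1d, at -0.40 ± 0.21, was lowest in RSD 8 (565 normalised reads) and RSD 13 (926), and highest in CON 1 (1922). Per coding kilobase Hist1h1c (4534 normalised reads) and Hist1h1e (4423) stood close together in mean level, and Hist1h1d stood at 1986. H1 genes took 44.6% of all histone reads in RSD 8 and at most 32.5% in the other 12 libraries.

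Hist1h1b, singled out after its values were seen, had its highest (CON 18) and lowest (CON 1) library in common with Mki67 and Top2a of the mitosis genes. It stood at 94.7 normalised reads in CON 18, 28.8 in CON 5 and 1.80 in CON 1, and at 9.58 to 18.7 in the other 10 libraries. Mki67, a marker of dividing cells, was at 833 in CON 18, 353 in CON 5 and 48.5 in CON 1, and at 74.4 to 160 in the other 10. Top2a, the topoisomerase that untangles chromosomes, was at 229, 97.1 and 10.8 in the same libraries and at 24.3 to 55.5 in the others. The order of those controls was the same for all 3 genes. Among the other 10 libraries Hist1h1b was highest in RSD 10 (18.7), where the mitosis genes had a median deviation of -0.22. It was lowest there in RSD 8 (9.58), where they had 0.08. The likeness thus rests on these controls, and CON 1 held 2 reads of Hist1h1b. The rest of the clusters followed the order of the controls in part. CON 18, highest in Mki67, also had the highest histone median (0.44), but CON 1, lowest in Mki67, had a histone median of 0.28, and CON 5, second in Mki67, had one of -0.24.

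**Figure D3:**
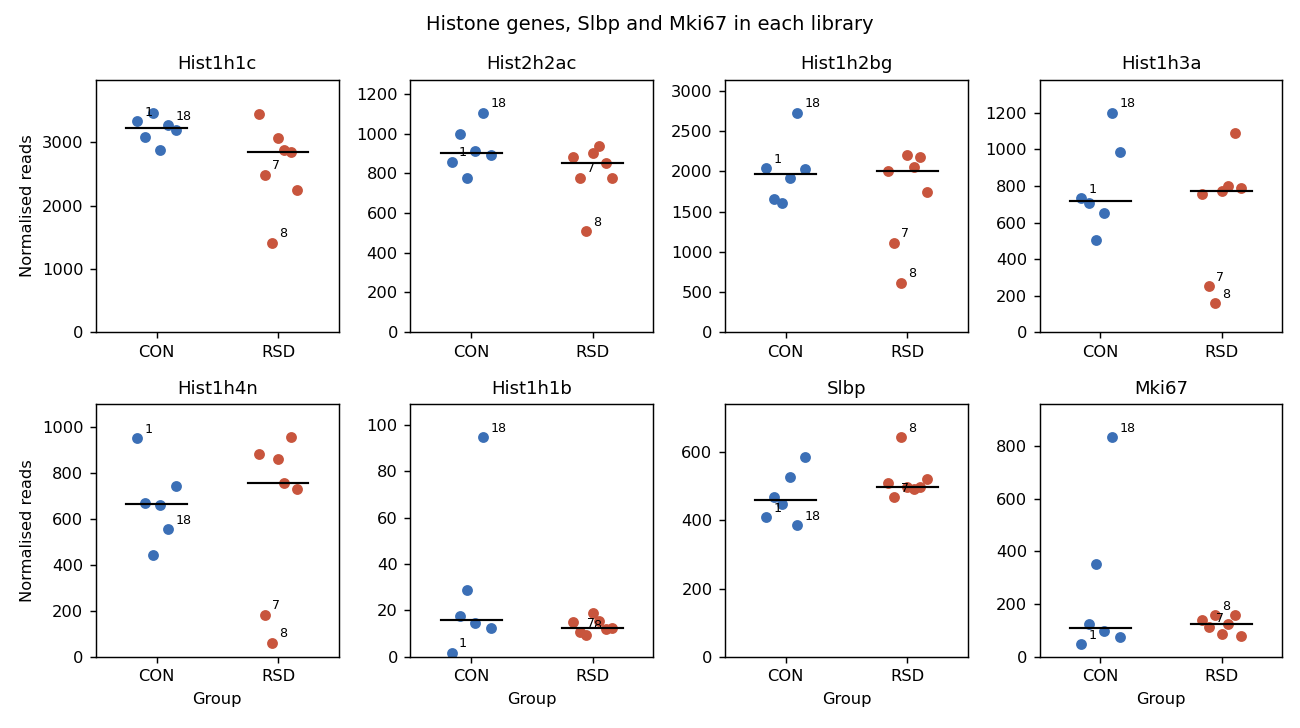
Normalised reads of 6 histone genes, Slbp and Mki67 in each of the 13 libraries, with a line at each group's median and the numbers of CON 1, CON 18, RSD 7 and RSD 8 beside their points. RSD 7 and RSD 8 are low for Hist1h2bg, Hist1h3a and Hist1h4n, while Hist1h1b and Mki67 share their high (CON 18) and low (CON 1) libraries.

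H2A genes had a median log2 difference of -0.43, with all 15 tested genes negative and 0 at an unadjusted p under 0.05. Hist2h2ac, the H2A gene with the highest level per length (1653 normalised reads per kilobase of transcript, 2205 per coding kilobase), lay at 775 (lowest), 902 (median) and 1105 (highest) in CON. In RSD it lay at 508, 850 and 938. Only RSD 8 was below the lowest control, and the difference was -0.21 ± 0.13 (limma adjusted p = 0.821). Hist1h2ah showed the wider spread of most H2A genes. It lay at 122, 165 and 302 in CON and at 34.1, 135 and 236 in RSD, with RSD 8 lowest, RSD 7 next and CON 18 highest. Its difference was -0.56 ± 0.37 (limma adjusted p = 0.821), and -0.11 without CON 18 and RSD 8.

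Hist1h2ag gave -0.40 ± 0.26, and Hist1h2ad, with 784 normalised reads in CON 18 against 305 to 481 in the other controls, gave -0.41 ± 0.34. Hist2h2ab gave -0.22 ± 0.27. Without RSD 8, which held 86.2 normalised reads of it against 246 to 348 in the other RSD libraries, the value for Hist2h2ab was 0.04. Reads of the H2A genes are hard to assign, since 90.7% of the 50-base stretches of Hist1h2ah and 93.5% of those of Hist1h2ao also occur in another histone gene.

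H2B genes took the largest mean share of reads of the families, 0.0828% ± 0.0155 in CON (SD, n = 6) and 0.0670% ± 0.0238 in RSD (SD, n = 7). Of the 17 tested all were negative, with a median of -0.39 and 1 at an unadjusted p under 0.05. Hist1h2bg had the highest level per length of all histone genes, 4827 normalised reads per coding kilobase. It lay at 1607 (lowest), 1973 (median) and 2732 (highest) in CON, and at 614, 2011 and 2204 in RSD. The RSD median was thus above the control median, and RSD 8 (614) and RSD 7 (1115) alone lay below the controls. The difference of -0.32 ± 0.28 (limma adjusted p = 0.821) became -0.002 without CON 18 and RSD 8.

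Hist2h2be had the smallest unadjusted p of the histone genes and a different profile. It lay at 89.4, 124 and 151 in CON and at 72.1, 88.6 and 112 in RSD, with RSD 12, not RSD 8, the lowest. The difference was -0.39 ± 0.14 (unadjusted p = 0.0132, limma adjusted p = 0.821). It was -0.37 without RSD 8 and -0.30 without CON 18 and RSD 8, and 4 of the 7 RSD libraries lay below the lowest control. No stem-loop was found in its 2192 annotated bases after the stop codon, and none of its 50-base stretches occurs in another histone gene.

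Hist1h2be, a further abundant H2B gene, gave -0.34 ± 0.20, with RSD 8 (650 normalised reads) and RSD 7 (874) below the other libraries (1220 to 1743). Hist1h2bf gave -0.44 ± 0.31 and Hist1h2bn -0.41 ± 0.34. Hist1h2bm had the most negative value in limma, -0.70 ± 0.37, and stood at -0.58 in edgeR and DESeq2. Its levels were low: 31.5 to 73.2 normalised reads in CON and 6.38 to 47.8 in RSD.

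H3 genes had the most negative family median, -0.50, with all 10 tested genes negative. Hist2h3b, the only one at an unadjusted p under 0.05 (0.0449), lay at 247 (lowest), 359 (median) and 557 (highest) in CON, and at 84.1, 280 and 310 in RSD. RSD 8, RSD 7 and RSD 13 lay below every control. Its difference of -0.66 ± 0.30 (limma adjusted p = 0.821) was -0.29 without CON 18 and RSD 8. Of its 50-base stretches 79.7% also occur in Hist2h3c1, a near copy listed at 0 to 17.9 normalised reads. Hist1h3a, the H3 gene with the highest level per length, lay at 505, 720 and 1201 in CON and at 160, 772 and 1089 in RSD. Here too the RSD median was above that of CON, while RSD 7 (250) and RSD 8 lay below every control. The difference was -0.47 ± 0.43 (limma adjusted p = 0.821), and -0.04 without CON 18 and RSD 8.

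Hist1h3e (-0.48 ± 0.26) and Hist1h3c (-0.48 ± 0.31) had the next smallest p of the family. Hist1h3h (-0.51 ± 0.39) and Hist1h3i (-0.56 ± 0.40) share 79.3% of their 50-base stretches with each other. In CON 18 Hist1h3i stood at 788 normalised reads, against 298 to 431 in the other controls, and at 72.4 in RSD 8.

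H4 was the family with the widest spread between libraries. All 13 tested H4 genes were negative, with a median of -0.28, the smallest difference of the families, and 0 stood at an unadjusted p under 0.05. Its standard error (median 0.45) was the largest. In edgeR and DESeq2 the median was -0.08 and -0.07, and without RSD 8 it was 0.06 with 8 of 13 positive. Hist1h4n, with the highest level per transcript length among H4 genes, lay at 445 (lowest), 664 (median) and 953 (highest) in CON, and at 61.7, 757 and 956 in RSD. The other 5 RSD libraries lay between 729 and 956, above 4 of the 6 controls or more, while RSD 7 was at 184 and RSD 8 at 61.7. The difference was -0.49 ± 0.62 (limma adjusted p = 0.847), and -0.01 without RSD 8. Hist1h4h lay at 319, 386 and 629 in CON and at 61.7, 513 and 633 in RSD, a difference of -0.25 ± 0.51 (limma adjusted p = 0.905). Without RSD 8 it was 0.16, and in edgeR and DESeq2 with all libraries it was 0.03 and 0.04.

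Within sample numbers 10 to 19 H4 went the other way from the rest of the clusters. All 13 H4 genes were higher in RSD there, with a median of 0.45 and 7 at an unadjusted p under 0.05. In that range 51.2% of all genes were higher by sign, and 5.41% passed the unadjusted threshold, 2.98% on the higher side and 2.43% on the lower. No H4 gene passed the limma adjusted p. Hist1h4h was at 510 to 569 in RSD 10 to 13 and at 319 to 461 in CON 17 to 19, and Hist1h4k at 327 to 358 and 202 to 292. The other families had medians of -0.18 (H1), -0.13 (H2A), -0.11 (H2B) and -0.09 (H3) in the same libraries. CON 18 was high in H2A, H2B and H3 (median deviations 0.73, 0.45 and 0.79) and low in H4 (-0.50). In CON 17 and CON 19 the deviations were 0.04 and 0.02 for H2A and 0.00 and 0.10 for H2B, within the range of RSD 10 to 13. For H3 they were -0.19 and 0.02, against -0.04 to 0.35. For H4 they were -0.29 and 0.00, against 0.02 to 0.23. This range was not fitted without CON 18. Within numbers 1 to 8 the H4 median was -1.13, with all 13 negative. Hist1h4d (-0.46 ± 0.45 over all libraries), Hist2h4 (-0.32 ± 0.33) and Hist4h4 (-0.25 ± 0.30), the H4 genes of smallest p, also had opposite signs in the number ranges.

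**Figure D4:**
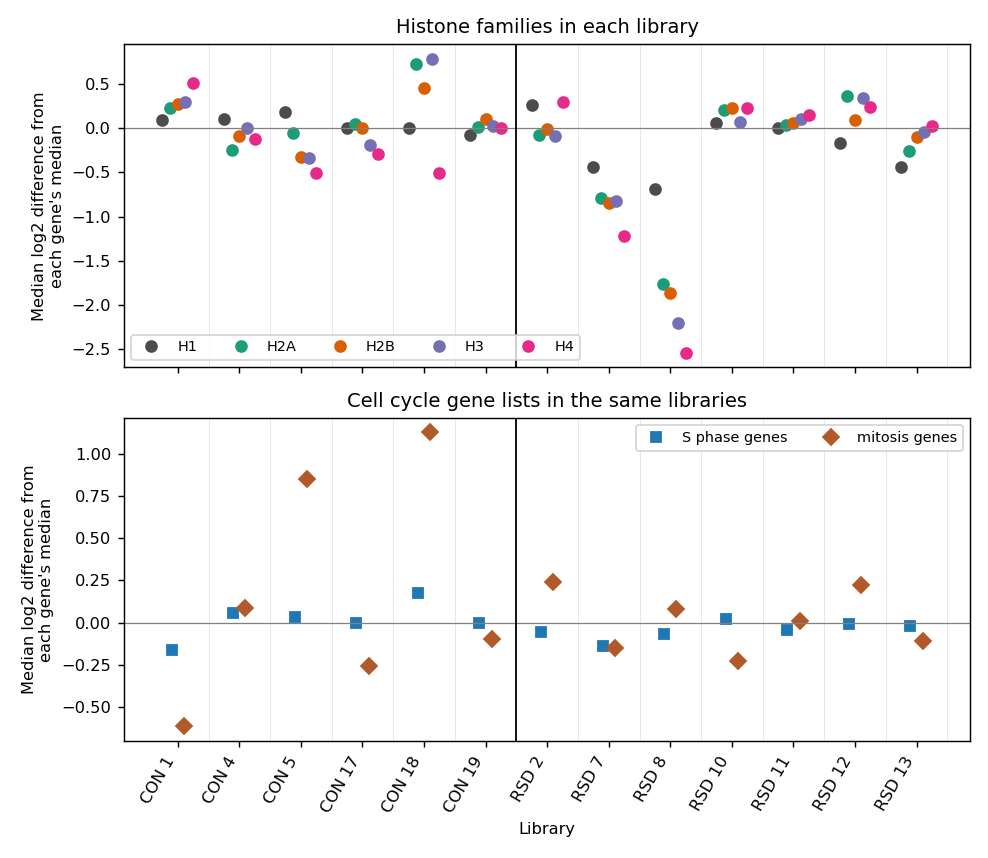
Median log2 difference from each gene's own median over 13 libraries, for the 5 histone families (top) and the S phase and mitosis lists (bottom), by library. In RSD 7 and RSD 8 the order runs from H1 (-0.44 and -0.69) down to H4 (-1.22 and -2.54), and in CON 18 H4 (-0.50) lies below H2A, H2B and H3 (0.73, 0.45 and 0.79).

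The families therefore did not move as a block. In RSD 8 the family medians were -0.69 for H1, -1.76 for H2A, -1.87 for H2B, -2.20 for H3 and -2.54 for H4, and in RSD 7 they were -0.44, -0.79, -0.85, -0.83 and -1.22. H4 reads stood at 0.717 of H3 reads in RSD 8 and at 0.788 in RSD 7. The ratio was 0.914 to 1.42 in 10 other libraries and lowest in CON 18, at 0.471. In CON 18 H2A, H2B and H3 were high (0.73, 0.45 and 0.79), H1 was at 0.00 and H4 was low (-0.50). CON 1 showed another pattern, with H4 highest of the families (0.51) and H1 at 0.10.

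Whether a messenger RNA is annotated to run past the stem-loop was set beside these values. Genes whose transcript ends within 50 bases of the loop had medians of -1.02 in RSD 7 and -2.23 in RSD 8 (18 genes), and those with longer transcripts -0.81 and -1.71 (23 tested genes). The 4 genes with no loop in an annotated end (Hist2h2be and Hist2h3b among them) stood at -0.51 and -1.10. Of these, Hist2h3b has only 37 annotated bases after the stop codon and Hist1h1a 48, so a loop further on would have been missed. The 15 genes with under 30 bases annotated stood at -0.82 and -2.28. The medians of the RSD minus CON difference were -0.44, -0.34, -0.37 and -0.47 in the same order. These classes differ in GC content, with medians of 60.2%, 51.2%, 50.2% and 65.4%, and in family, and they were not tested against each other.

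Most head-to-head pairs of H2A and H2B genes kept a narrower range of ratios than of levels. Of the 10 such pairs in the table, all with gaps of 172 to 301 bases, 9 could be compared per coding kilobase. The H2B partner was higher in all 13 libraries in 7 of them and in 12 of 13 libraries for Hist1h2bj over Hist1h2ag. The ratios depend on the length used. Per transcript length Hist1h2bp was higher than Hist1h2an in 10 of 13 libraries only, and the median for Hist1h2bc over Hist1h2ac was 8.24 in place of 3.96. In the pair whose promoter is printed above, Hist1h2bg stood at a median of 6.35 times Hist1h2ae, and the ratio ranged only from 4.85 to 8.58 while Hist1h2bg itself ranged from 614 to 2732 normalised reads. The order was reversed in the chromosome 3 pair. There Hist2h2be stood at 0.120 of Hist2h2ac (range 0.0869 to 0.173) across a gap of 238 bases. Its ratio ranged about as widely as the levels of its genes. For Hist3h2a and the pseudogene Hist3h2bb-ps the ratio per transcript kilobase ran from 0.112 to 0.393. Hist3h2a itself ran from 604 to 1546 normalised reads per coding kilobase, a narrower range. Pairs of genes that are not neighbours were not set beside these, and most cluster genes were low together in RSD 7 and RSD 8. Reads shared with near copies could move these ratios.

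**Figure D5:**
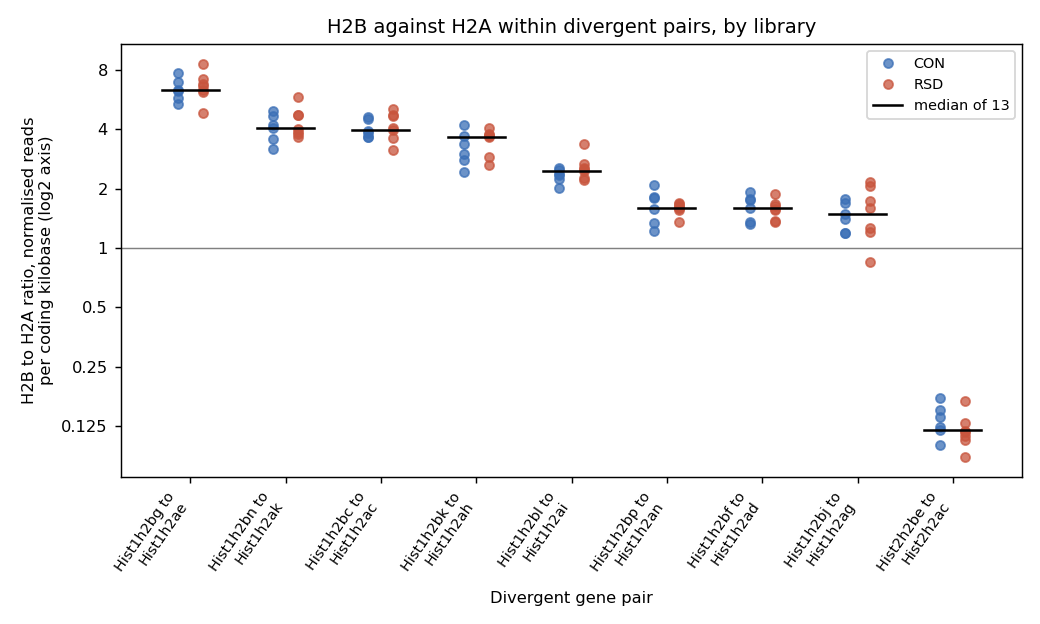
Ratio of the H2B to the H2A gene of each head-to-head pair, in normalised reads per coding kilobase on a log2 axis, with 1 point per library and a line at the median of 13. Median ratios run from 6.35 for Hist1h2bg to Hist1h2ae down to 0.120 for Hist2h2be to Hist2h2ac, and CON and RSD points overlap in every pair.

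Near-identical copies limit what can be said of single genes. A median of 44.2% of a histone gene's 50-base stretches occurs in another histone gene; the share is over 50% for 25 of the 62 genes and 0 for 6. In addition 21 genes overlap another annotated gene, 18 of them one on the opposite strand, and whether strand was used in the counting is not given in the sources used here.

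Genes that act on histone messenger RNA showed no matching difference. Of 16 genes of 3′ end processing and decay in the table, all tested, 11 were higher and 5 lower in RSD, with a median of 0.07, and 0 passed either threshold. Slbp lay at 387 (lowest), 458 (median) and 585 (highest) normalised reads in CON, and at 468, 499 and 644 in RSD, where RSD 8 was the highest library. Its difference was 0.15 ± 0.10 (limma adjusted p = 0.821). Npat, which switches on histone gene transcription at the entry to S phase, was at 772 to 930 in CON and 745 to 1278 in RSD, again highest in RSD 8, with a difference of 0.09 ± 0.11 (limma adjusted p = 0.847). Lsm11, a protein of the U7 particle that cuts histone messenger RNA, was at -0.30 ± 0.16 and lowest in RSD 8 (61.7). Ssb, the La protein, which binds ends of small RNAs, was at 0.27 ± 0.14. RSD 8, the library with the least histone RNA, thus had the most Slbp, Npat and Ssb (2187), while RSD 7 had the lowest Slbp and Npat of the RSD group (468 and 745).

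Replacement histones are made outside the clusters and in non-dividing cells. Of 9 tested, 7 were lower in RSD by sign (48.6% of all genes were), with a median of -0.15 and none called. Their summed level was lowest in RSD 8 (12094 normalised reads) and RSD 7 (13014) and highest in CON 18 (23153), with 13631 to 16706 in the others. In these sums that is the order of the extremes in the clusters, over a smaller range in RSD 7 and RSD 8. By the median deviation of the tested genes RSD 8 (-0.23) was also lowest and CON 18 (0.44) highest. RSD 7 (-0.02) was not low by that measure, and CON 1 (-0.09) and CON 17 (-0.08) were among the libraries below it. H1f0, the H1 of resting cells, had the smallest p, at -0.27 ± 0.10 (limma adjusted p = 0.821), and H2afj stood at -0.29 ± 0.16. Histone chaperones, which carry histones to DNA, had 11 of 17 tested genes higher in RSD and a median of 0.07. Nasp, a carrier of H3 with H4 and of linker histones, was at 0.34 ± 0.13 and highest in RSD 8 (392 normalised reads). Daxx, which carries H3.3, was at -0.24 ± 0.13, with a limma adjusted p of 0.821 for both.

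The cell cycle lists were far less low in RSD 7 and RSD 8 than the histone cluster genes. S phase genes had a median of -0.03 over 17 tested genes, 10 of them lower, with median deviations of -0.14 in RSD 7 and -0.07 in RSD 8. Of the other libraries only CON 1 (-0.17) lay below these, and CON 18 (0.18) lay highest. The median deviations of the mitosis genes were -0.15 in RSD 7 and 0.08 in RSD 8, between those of CON 1 (-0.62) and CON 18 (1.13). Tyms, of thymidylate synthesis, was at -0.26 ± 0.13 and E2f1, a factor of S phase entry, at -0.52 ± 0.37. Mitosis genes were lower in 11 of 12 tested genes (48.6% of all genes were), with a median of -0.25. Their summed level had a median of 454 normalised reads in RSD and 434 in CON. That sum was highest in CON 18 (1740) and CON 5 (966) and lowest in CON 1 (258). Mki67 was at -0.37 ± 0.56 and Top2a at -0.40 ± 0.53; without CON 18 both were above 0, at 0.12 and 0.05. Cdc20, which triggers the exit from mitosis, had the smallest p of its list, at -0.81 ± 0.37, with 38.3 normalised reads in CON 18 and 6.38 in RSD 8. Ccna2, the cyclin of S phase and mitosis, was at -0.33 ± 0.25. None of these genes passed the limma adjusted threshold.

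Markers of other cells that the sort could hold were called in no list either. By list, the tested genes lower in RSD were 2 of 2 for border-associated macrophages, 4 of 4 for monocytes, 0 of 5 for neutrophils and 1 of 1 for red cells. They were 4 of 4 for oligodendrocytes, 1 of 3 for astrocytes and 3 of 4 for neurons, where 48.6% of all genes were lower. The summed border-associated macrophage markers had a higher median in RSD (309.7 normalised reads) than in CON (239.3). CON 18 stood at 14733, and the other controls at 186.8 to 329.7. Alas2 of the red cell list (-0.52 ± 0.19) and Mbp of oligodendrocytes (-0.23 ± 0.08) had the smallest p. Pf4, Cbr2 and Clec10a of the macrophage list, Chil3 of monocytes and S100a8, S100a9, Ltf and Retnlg of neutrophils were at 0 in at least 1 library.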

How the data were processed

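The deposited table gives, per gene and sample, a signal that the authors made with STAR and DESeq2 (normalised reads) on mm10, as listed in the submitters' processing notes. The Ovation SoLo kit was used after Percoll enrichment and sorting, and ribosomal RNA was depleted, per the labels' protocols. Versions, counter, annotation and strand setting were not given in the sources used here. Within each library 100% of values were whole multiples of 1 step (tolerance 0.01 reads), which gave back the whole reads. The table is not raw counts, so the reported test is limma (3.58.1, R 4.3.3; trend, robust) on log2(value + 1) over 12496 genes kept by filterByExpr of edgeR (4.0.16; minimum count 10, total 15), RSD against CON, two-sided, Benjamini-Hochberg adjusted, threshold 0.05. Fold changes understate low genes on this scale.

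edgeR and DESeq2 (1.42.0) on recovered reads, other pseudocounts and filters, and left-out libraries were the alternatives. No 2 libraries agreed within counting noise (lowest chi-square per degree of freedom 4.21). No label ties a sample to 1 animal; the p-values therefore cover the spread between these samples, which may be technical.

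Of the symbols, 13790 matched GENCODE M21 (GRCm38, as mm10) and 559 a RefSeq synonym. Loops and promoter words were searched in GENCODE transcripts and RefSeq promoters. Per family the 3 genes of smallest p and the 3 of highest level per transcript length were named, with up to 2 of smallest p in every other list and Slbp, Npat, Mki67 and Top2a in any case. Hist1h1b and the small RNAs were singled out after their values were seen. The genes, lists and rules were chosen with earlier results of these data known.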

Additional observations from a re-analysis of the deposited data

Results flagged for a closer look

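In 9 of 76 groups of values checked, 1 library lay far from the rest of its group by Dixon's criterion (0.625 for 6 libraries, 0.568 for 7), which chance does in about 1 of 20 groups. Among the controls CON 18 was far above the others for Hist1h2ad (784 normalised reads), for Hist1h3i (788) and for the share of reads taken by H2A genes (0.0555%). CON 1 was far above the other controls for Hist1h4k (456) and for the share taken by H4 genes (0.0599%). Among the RSD libraries RSD 8 was far below the others for Hist2h2ab (86.2) and Hist2h2ac (508), and far above them for Slbp (644) and Npat (1278).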

How the results depend on the processing

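No histone gene was called under any alternative run. Over all genes 0 were called, except 2 in DESeq2. The count of histone genes at an unadjusted p under 0.05 is given with the share of all genes in brackets. It was 4 in the reported fit (4.0%), 2 in edgeR (4.81%), 2 in DESeq2 (4.62%) and 1 without CON 18 and RSD 8 (4.88%). It was 17 within numbers 1 to 8 (22.2%), and in all these runs every such histone gene was lower in RSD. Within numbers 10 to 19 it was 8 (5.41%), 7 of them higher in RSD and 1 lower. The count of histone genes was 1 to 5 when single libraries were left out: 1 without CON 1, CON 4, CON 5 or RSD 7, and 2 without CON 18, CON 19 or RSD 13. Their median stayed negative in all of these, at -0.51 to -0.16 with 1 library left out, as did the RSD minus CON share of reads (-0.0605 to -0.0282 percentage points). Signs turned for these genes. Leaving out 1 library gave -0.30 to 0.036 for Hist2h2ab, -0.39 to 0.16 for Hist1h4h, -0.41 to 0.16 for Hist1h4k and -0.0039 to 0.13 for Npat, each crossing 0 without RSD 8. It gave -0.70 to 0.12 for Mki67 and -0.80 to 0.052 for Top2a, crossing 0 without CON 18. Without both: Hist1h1b 0.22, Hist1h2ad 0.022, Hist2h2ab 0.063, Hist1h4h 0.093, Hist1h4k 0.085, Hist2h4 0.026, Npat -0.010, Mki67 0.047 and Top2a 0.065. Within numbers 10 to 19: Hist2h2ab 0.10, Hist1h4d 0.19, Hist1h4h 0.50, Hist1h4k 0.50, Hist1h4n 0.34, Hist2h4 0.31, Hist4h4 0.37 and Npat -0.071. Within numbers 1 to 8: Hist1h1b 0.11, Mki67 0.065 and Top2a 0.045. By tool Hist1h4h was 0.034 in edgeR and 0.039 in DESeq2. Apart from the libraries left out by construction, the cause was not tested. No paired analysis was possible because the groups share no sample numbers. Genes of few reads, such as Hist1h1b with 2 reads in 1 library, are limited by depth.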

Other observations

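Small RNAs that, like the stem-loop histone messenger RNAs, carry no poly(A) tail were looked at after the low values of RSD 7 and RSD 8 had been seen. The set holds 14 tested RNAs of the table: Rmrp, Rpph1, Terc and RNAs whose symbols begin with Rnu or Scarna. Other RNAs without a poly(A) tail were not set beside them, and whether the tail has a part in these values was not tested. For 9 of the 14, RSD 7 and RSD 8 were the lowest pair of libraries, as for 2.77% of all genes. Rmrp, the RNA of the RNase MRP particle, stood at 1915 normalised reads in RSD 7 and 1495 in RSD 8, and at 6845 to 32492 in the others. Rpph1, the RNA of RNase P, stood at 1971 and 1222, and at 7206 to 26367 in the others. The minor spliceosome RNA Rnu11 was at 42.2 and 84.1, against 185 to 502, and the Cajal body RNA Scarna13 at 167 and 209, against 643 to 2322. CON 5 was the third lowest for each of these 4 RNAs. The remaining 5 RNAs of the set did not have both libraries lowest. Rnu73b was at 35.9 and 41.5, within 26.9 to 53.6 of the others. Scarna3a was at 59.1 and 96.8, against a median of 205 in the others, and RSD 7 was the lowest library for Scarna3a and for Scarna17 (12.7, against 15.1 to 35.6). Over the 14 the median log2 difference between the groups was -0.08, with 10 negative.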
